A study of Homo sapiens with 12 samples.

Results

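The EGR and NR4A genes are 7 transcription factor genes, EGR1, EGR2, EGR3 and EGR4 together with NR4A1, NR4A2 and NR4A3, taken by gene symbol from a table of 58671 gene rows. All 7 were found, each in 1 row, and 6 of them reached 1 FPKM (fragments scaled for transcript length and library size) in at least 1 group, the filter that 22087 rows passed. EGR4 stayed below it, at 0.827 FPKM or less. RNA was measured in A549 cells, an established line of human lung carcinoma cells, in 4 groups of 3 samples: RNase L knockout (RLKO) cells 6 h after transfection of poly(I:C) at 500 ng/ml, untreated RLKO cells, parental (WT) cells given the same poly(I:C) for 6 h, and untreated WT cells. Poly(I:C) is a synthetic double-stranded RNA that imitates viral RNA, and RNase L is the endoribonuclease that cells switch on in response to it. The sources used here do not say whether untreated cells received transfection reagent alone or whether the RLKO line is 1 clone.

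The authors deposited 1 pooled value per group, and neither the spread of its 3 samples nor their read depth is known. Within a genotype a gene is said to have risen only where the authors' deposited q-value was under 0.05, and no comparison between the genotypes carries a test. Of the epithelial markers, the keratin KRT8 had 318 to 944 FPKM over the groups, CDH1 2.93 to 4.52 FPKM and EPCAM 0.558 to 1.03 FPKM, and the mesenchymal marker VIM had 450 to 623 FPKM. The keratin KRT19 differed between the lines, with 46.3 FPKM in treated and 54.0 FPKM in untreated RLKO cells against 6.64 FPKM in treated and 14.4 FPKM in untreated WT cells. The lung markers NAPSA and SFTPC had at most 0.681 and 0.241 FPKM, and the leukocyte marker PTPRC at most 0.0421 FPKM. Of the 7 kept genes of this A549 identity list none rose or fell, with a median log2 change of -0.25 in RLKO and -1.42 in WT on the scale described next, and its part in the results was not tested. On a scale set by the added ERCC spike-in RNAs, the median log2 change after poly(I:C) of 12181 protein-coding genes was -0.24 in RLKO and -0.70 in WT, and -0.10 in RLKO and -0.17 in WT in FPKM as deposited. All log2 changes below use the spike-in scale and add a pseudocount of 1 to each level, so the change of low genes comes out too small; they are to be read against those medians.

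EGR and NR4A genes are classical immediate early genes: their promoters are held ready, and signals that reach serum response factor or CREB through MAP kinases switch them on within minutes without new protein synthesis. Their mRNAs are short-lived, so a pulse of transcription normally ends quickly. EGR proteins bind GC-rich DNA through zinc fingers and are held in check by the NAB corepressors, whereas NR4A proteins are orphan nuclear receptors that act without a classical ligand and bind DNA alone or with RXR partners. In epithelial cells both families are known as early responders to growth factors, stress and inflammatory signals.

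After poly(I:C) all 7 genes stood lower in RLKO than in WT cells, at 0.118 to 0.231 of the WT level. More than 2-fold lower in treated RLKO cells were also 11.9% of kept protein-coding genes and 72.3% of those that rose in WT. Of those with under 1 FPKM in untreated WT cells the share was 67.7%. EGR1 was the only member with a high level and the only one that rose in both lines. NR4A1, NR4A2, NR4A3 and the very low EGR4 rose in WT cells; in RLKO cells the NR4A genes had q-values of 0.222 or more in the authors' deposited table, and EGR4 was not tested. EGR2 and EGR3 were called in neither line, and in RLKO cells they too were not tested. In RNA from whole cultures, fewer responding cells and less RNA per cell cannot be told apart.

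**Figure D1:**
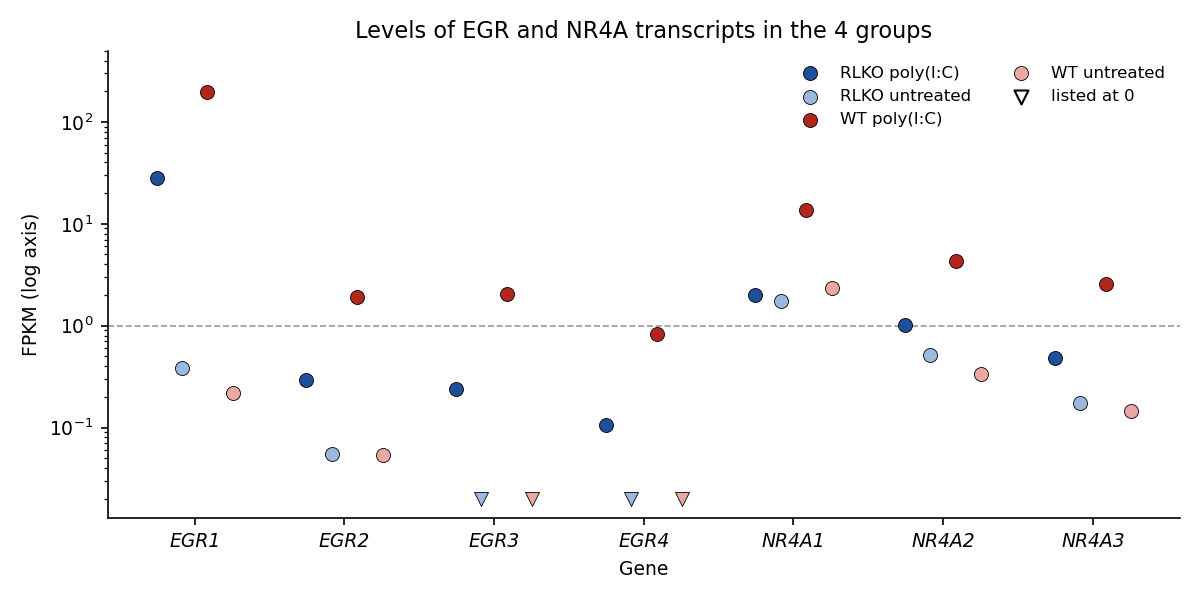
Level of each gene in FPKM (vertical log axis, as deposited) in RLKO poly(I:C), RLKO untreated, WT poly(I:C) and WT untreated cells, in that order from left to right; circles give the pooled value of 3 samples, without an error, triangles mark values listed at 0, and the dashed line is 1 FPKM. Treated WT cells held the highest value of every gene, from 0.827 FPKM for EGR4 to 199 FPKM for EGR1.

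EGR1, the best known zinc-finger factor of the family (ENSG00000120738, chromosome 5, 138465490 to 138469315, plus strand, GRCh38), had 28.0 FPKM in treated and 0.384 FPKM in untreated RLKO cells. In WT cells it had 199 FPKM after poly(I:C) and 0.220 FPKM without it. Both treated groups lay far above both untreated groups, and the untreated levels of the lines were close together. The log2 change was 4.24 in RLKO (q = 0.0107) and 7.01 in WT (q = 0.00180), q-values in the authors' deposited table. These are the smallest q-values that the table holds for each line, shared by 100 rows in RLKO and 661 rows in WT. By size of change EGR1 ranked 15th from the top of 12181 protein-coding genes in RLKO and 7th in WT. As a plain ratio of FPKM the treated level was 72.8 times the untreated one in RLKO cells and 903 times in WT cells.

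EGR2, which is known for its part in myelination and hindbrain patterning (ENSG00000122877, chromosome 10, 62811996 to 62919900, minus strand), had 0.292 FPKM in treated and 0.0548 FPKM in untreated RLKO cells. In WT cells its values were 1.93 FPKM with poly(I:C) and 0.0533 FPKM without. The untreated groups were nearly alike, and treated WT cells stood above the other 3 groups. Its log2 change was 0.26 in RLKO and 1.28 in WT, where q in the authors' deposited table was 0.318.

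EGR3, a close relative known from muscle spindle development and lymphocytes (ENSG00000179388, chromosome 8, minus strand), had 0.241 FPKM in treated RLKO cells and 2.03 FPKM in treated WT cells, and it is listed at 0 in both untreated groups. EGR4 (ENSG00000135625, chromosome 2, 73290929 to 73293705, minus strand), the least studied member, had 0.106 FPKM in treated RLKO cells and 0.827 FPKM in treated WT cells and is likewise listed at 0 without treatment. No fold against a listing of 0 is given, since such a value can also be a failed estimate. The authors' deposited table gave EGR4 q = 0.00180 and EGR3 q = 0.406 in WT, although EGR3 had the higher level. For EGR2, EGR3 and EGR4 the RLKO test was marked as not made in that table, and the q-values of 1 listed there are no outcome.

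EGR1 made up most of the family's RNA in every group. The 4 genes summed to 28.6 FPKM in treated and 0.439 FPKM in untreated RLKO cells, against 204 FPKM in treated and 0.273 FPKM in untreated WT cells. EGR1 held 97.8% of the sum in treated and 87.5% in untreated RLKO cells, and 97.6% in treated and 80.5% in untreated WT cells.

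NR4A1, also known as NUR77 (ENSG00000123358, chromosome 12, 52022832 to 52059507, plus strand), was the one member with more than 1 FPKM in all 4 groups. It had 1.98 FPKM in treated and 1.74 FPKM in untreated RLKO cells. In WT cells it had 13.6 FPKM with poly(I:C) and 2.35 FPKM without. Treated WT cells thus stood apart from 3 groups that lay close together. Its log2 change was 0.01 in RLKO (q = 1.00) and 1.62 in WT (q = 0.00944), both q-values from the authors' deposited table. By rank this placed NR4A1 at 2345 of 12181 protein-coding genes in RLKO and at 235 in WT. An opposite-strand lincRNA, AC025259.3, overlaps NR4A1 and had 0.678 FPKM in treated and 0.900 FPKM in untreated RLKO cells, and 5.77 FPKM in treated and 0.871 FPKM in untreated WT cells (q = 0.520 in WT, authors' deposited table). The sources used here do not say whether the libraries kept the strand, so reads of the overlapping pair may not be told apart.

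NR4A2, or NURR1, a factor needed by midbrain dopamine neurons (ENSG00000153234, chromosome 2, 156324432 to 156342348, minus strand), had 1.01 FPKM in treated and 0.521 FPKM in untreated RLKO cells. In WT cells it had 4.36 FPKM with poly(I:C) and 0.335 FPKM without. The log2 change was 0.32 in RLKO (q = 1.00) and 1.69 in WT (q = 0.00180), as given by q in the authors' deposited table.

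NR4A3, or NOR1 (ENSG00000119508, chromosome 9, 99821855 to 99866891, plus strand), had 0.477 FPKM in treated and 0.174 FPKM in untreated RLKO cells. In WT cells it had 2.57 FPKM with poly(I:C) and 0.147 FPKM without. Of the uncalled members in RLKO it had the lowest q, 0.222 in the authors' deposited table (unadjusted p = 0.00190), at a log2 change of 0.28, and in WT it rose by 1.40 (q = 0.00180). For both NR4A2 and NR4A3 the treated group was the higher one in either line.

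The 3 NR4A genes kept 1 order, NR4A1 above NR4A2 above NR4A3, in all groups. They summed to 3.47 FPKM in treated and 2.44 FPKM in untreated RLKO cells, against 20.5 FPKM in treated and 2.83 FPKM in untreated WT cells. NR4A1 held 57.2% of that sum in treated and 71.5% in untreated RLKO cells, and 66.2% in treated and 83.0% in untreated WT cells. With no spread between samples, differences between neighbours in these orders have no test.

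Of the 6 members that passed the filter, 1 rose in RLKO and 4 in WT, and none fell in either line. In RLKO 0.512% of the kept rows rose, or 0.579% of those marked as tested, among which 4 members stood. In WT 4.48% of the kept rows rose and 3.35% fell. These shares are not matched for level: EGR2, EGR3 and NR4A3 passed the filter only through treated WT cells, and EGR1 and NR4A2 only through the treated cells of both lines. Of protein-coding genes kept with under 1 FPKM in untreated cells, 39 of 982 (3.97%) rose in RLKO and 245 of 996 (24.6%) in WT. The median log2 change of the 6 was 0.28 in RLKO, with a range of 0.01 to 4.24, and 1.52 in WT, with a range of 1.28 to 7.01.

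**Figure D2:**
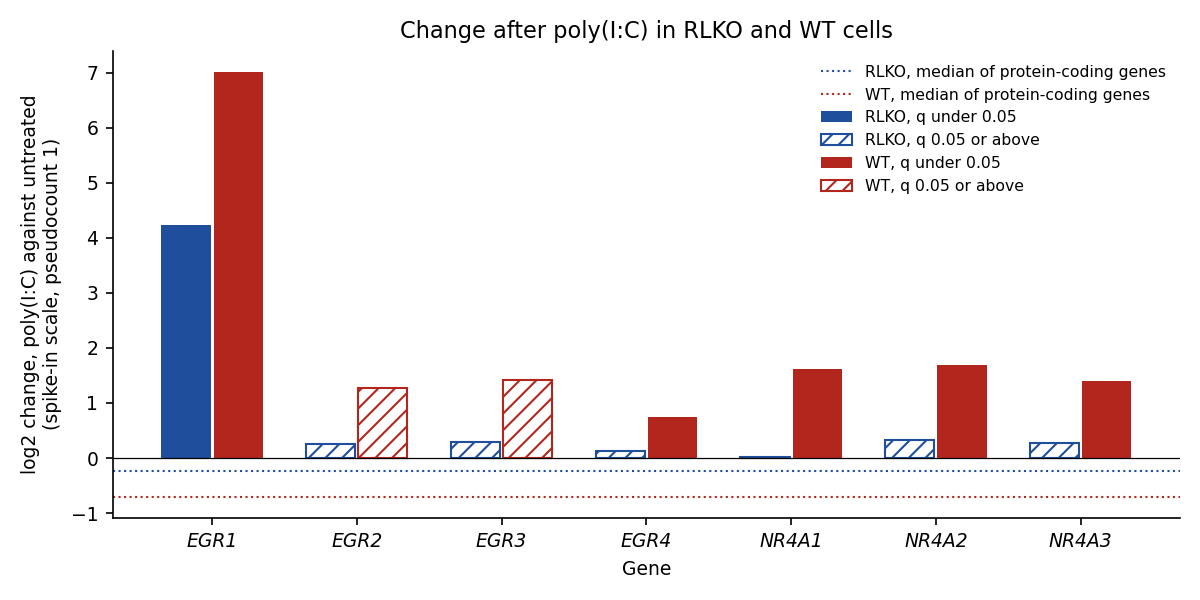
Log2 change of each gene after poly(I:C) against untreated cells (vertical axis, spike-in scale, pseudocount 1) in RLKO (blue, left) and WT (red, right); filled bars have a deposited q-value under 0.05, hatched bars do not, and dotted lines are the medians of 12181 protein-coding genes (-0.24 in RLKO, -0.70 in WT). EGR1 is the only gene with a filled bar in both lines, at 4.24 in RLKO and 7.01 in WT.

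The design sets RLKO beside WT cells to ask which changes go with the presence of RNase L. In treated cells the FPKM of RLKO was 0.118 to 0.231 of that of WT in all 7 genes, with a median of 0.146. EGR1 stood at 0.141, EGR2 at 0.152, EGR3 at 0.118, EGR4 at 0.128, NR4A1 at 0.146, NR4A2 at 0.231 and NR4A3 at 0.186. The levels behind these ratios spanned 0.827 to 199 FPKM in treated WT cells, and 4 of them rest on treated RLKO values under 0.5 FPKM that have no error. All 7 were more than 2-fold lower in RLKO, as were 30.7% of the kept rows and 11.9% of the kept protein-coding rows, whose median ratio was 1.11. Among the 520 protein-coding genes that rose in WT, 72.3% were more than 2-fold lower in treated RLKO cells and the median ratio was 0.317. Among 996 kept protein-coding genes with under 1 FPKM in untreated WT cells these values were 67.7% and 0.321.

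In untreated cells the ratios lay on both sides of 1. The FPKM of RLKO was 1.74 times that of WT for EGR1, 1.03 times for EGR2, 0.741 times for NR4A1, 1.56 times for NR4A2 and 1.18 times for NR4A3, and EGR3 and EGR4 are listed at 0 in both. The log2 change after poly(I:C) was lower in RLKO than in WT for each of the 7, and the difference, RLKO minus WT, was -2.77 for EGR1, -1.62 for NR4A1, -1.37 for NR4A2, -1.13 for EGR3, -1.11 for NR4A3, -1.02 for EGR2 and -0.62 for EGR4. The median of the 6 kept members was -1.25, where that of protein-coding genes was 0.47. Of protein-coding genes 0.107% had a lower difference than EGR1 and 4.22% a lower one than EGR2. EGR2, EGR3 and NR4A3 passed the filter only through treated WT cells, which by itself favours a negative difference. The median and shares of protein-coding genes are not matched for this or for level.

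**Figure D3:**
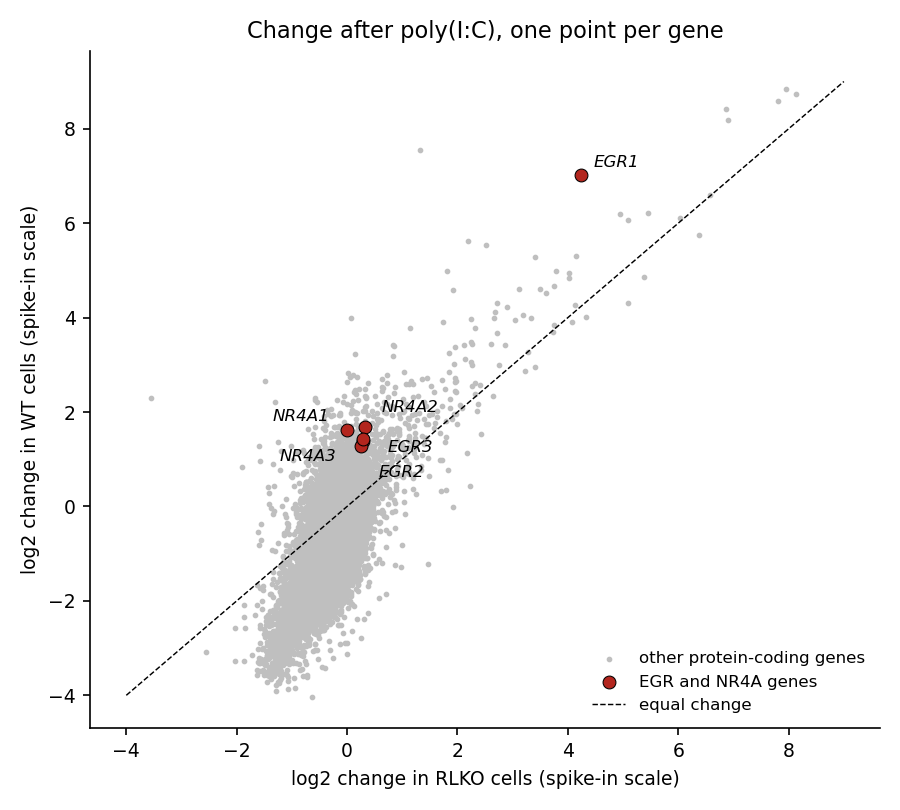
Log2 change after poly(I:C) on the spike-in scale in RLKO cells (horizontal axis) and WT cells (vertical axis), 1 point per protein-coding gene kept (12181 genes), with the 6 kept EGR and NR4A genes in red and equal change as a dashed line. All 6 lie above the line; EGR1 is at 4.24 and 7.01, and NR4A1 at 0.01 and 1.62.

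By the profile over the 4 groups, measured as the distance between spike-in-scaled log2 values relative to untreated WT cells, the members resembled different genes. The protein-coding genes nearest to EGR1 were RSAD2 (distance 1.01), IFIT3 (1.33) and IFIH1 (1.43), all interferon-induced. None of these matched its gap between the lines: IFIT3 had 175 FPKM in treated RLKO and 335 FPKM in treated WT cells. The nearest gene to NR4A3 was EGR3, and the reverse, at a distance of 0.03. Next came ZBTB10 (0.05) and MMD2 (0.08) for NR4A3, and MMD2 (0.06) and ZBTB10 (0.07) for EGR3. NR4A3, EGR3 and MMD2 had 2.03 to 2.57 FPKM in treated WT cells and at most 0.477 FPKM in any other group. With a pseudocount of 1, profiles of such low genes could differ little. EGR2 lay nearest to ZBTB10, IRS2 and KCNH7 (0.11 each), NR4A2 to APOL3 (0.05), KDM5B (0.06) and SLC25A25 (0.12), and NR4A1 to SRSF12 (0.17), PPP1R27 (0.23) and P2RY11 (0.24). Such a likeness rests on 4 values and, with a pseudocount of 1, joins genes of different levels: KDM5B had 69.6 FPKM in treated WT cells and NR4A2 4.36 FPKM.

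Promoter windows were looked up because immediate early genes are classical targets of serum response factor, which binds the CArG box, and of CREB, which binds the CRE, whose half-site is TGACG. The 8 RefSeq windows (GRCh38.p14) used here cover 5 members, each from 250 bases before to 50 after an annotated start. There was 1 each for EGR1, EGR4 and NR4A3, 3 for EGR2 and 2 for NR4A1. EGR3 was left out of this search, and the promoter set used here had no entry for NR4A2. The windows of EGR1, EGR2 (the start nearest to the gene's end of the 3), EGR4 and NR4A3 follow, 5′ to 3′ on the gene's strand. Capitals mark the CArG box and TGACG on either strand, where TGACG on the opposite strand reads as CGTCA.
EGR1 (chr5:138465229-138465528, plus strand): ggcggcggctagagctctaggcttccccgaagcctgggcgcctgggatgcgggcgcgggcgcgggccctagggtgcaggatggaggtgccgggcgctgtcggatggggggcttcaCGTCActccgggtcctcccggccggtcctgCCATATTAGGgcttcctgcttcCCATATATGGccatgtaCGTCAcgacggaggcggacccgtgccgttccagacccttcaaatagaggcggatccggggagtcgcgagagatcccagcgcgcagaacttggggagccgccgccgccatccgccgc
EGR2 (chr10:62816317-62816616, minus strand): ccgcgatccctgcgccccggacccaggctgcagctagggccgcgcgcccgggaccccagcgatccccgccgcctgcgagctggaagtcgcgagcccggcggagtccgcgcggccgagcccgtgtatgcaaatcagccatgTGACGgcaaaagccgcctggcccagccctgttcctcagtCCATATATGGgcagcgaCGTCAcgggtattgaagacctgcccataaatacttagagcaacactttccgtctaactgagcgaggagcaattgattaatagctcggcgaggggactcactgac
EGR4 (chr2:73293499-73293798, minus strand): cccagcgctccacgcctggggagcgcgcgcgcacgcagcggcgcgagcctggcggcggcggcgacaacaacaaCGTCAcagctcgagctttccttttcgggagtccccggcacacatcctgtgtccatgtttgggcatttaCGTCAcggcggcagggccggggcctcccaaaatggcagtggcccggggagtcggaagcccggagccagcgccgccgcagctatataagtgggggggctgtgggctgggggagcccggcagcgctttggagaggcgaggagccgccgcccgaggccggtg
NR4A3 (chr9:99821635-99821934, plus strand): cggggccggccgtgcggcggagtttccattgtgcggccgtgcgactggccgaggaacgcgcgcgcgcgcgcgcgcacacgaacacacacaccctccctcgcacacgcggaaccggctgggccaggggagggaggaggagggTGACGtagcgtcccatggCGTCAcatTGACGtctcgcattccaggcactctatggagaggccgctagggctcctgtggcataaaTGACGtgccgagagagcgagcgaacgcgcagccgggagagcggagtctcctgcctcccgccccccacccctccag

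The EGR1 window held 2 CArG boxes and 2 CRE half-sites, and that of EGR2 shown here held 1 CArG box between 2 half-sites. EGR4 had 2 half-sites and NR4A3 had 4, with no CArG box in either. Searched on both strands, a CArG box occurs in 1.29% of 35116 such windows in the RefSeq table and TGACG in 24.6%, while the full palindrome TGACGTCA, which contains TGACG on both strands, occurs in 1.85% and in none of the 8. The letters GCGNGGGCG, the EGR consensus, stood once in the EGR1 window and once in the second EGR2 window, and in 9.43% of all windows. TATAA stood in the EGR4 window and in 20.4% of all. The kappaB motif stood in 2 places in the EGR4 window and once in the second EGR2 window, and in 11.3% of all windows. AAAGGTCA, the NR4A monomer site, stood in none of the 8 and in 1.22% of all. Neither NR4A1 window held any of these motifs, which says only that the letters are not in those 300 bases.

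**Figure D4:**
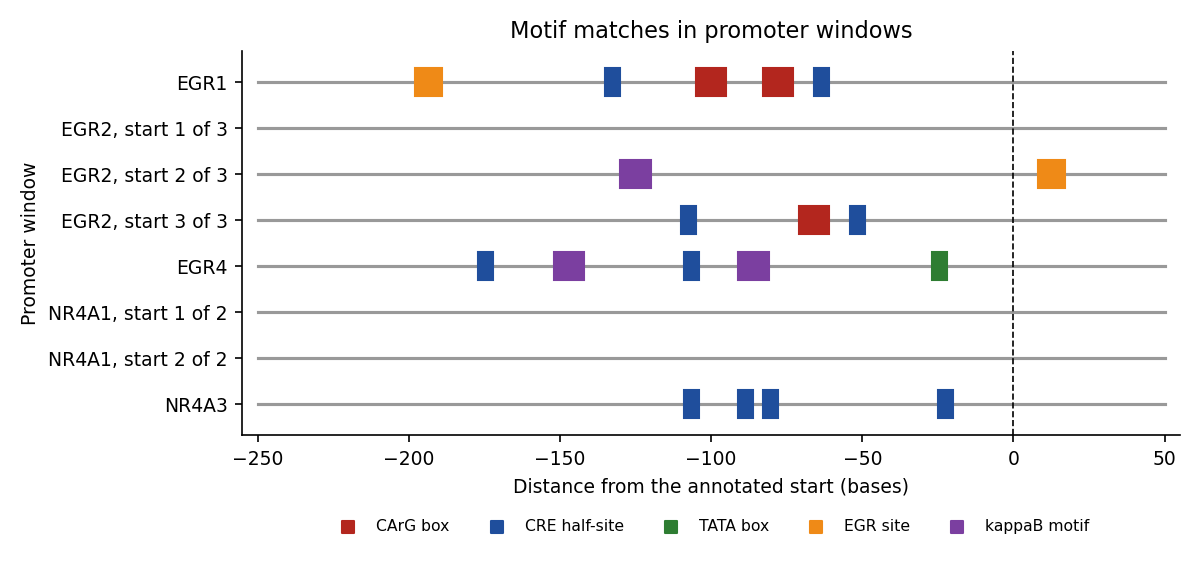
Matches of 5 motifs (coloured boxes, either strand) in the 8 RefSeq promoter windows of 5 members, by distance from the annotated start in bases (horizontal axis, dashed line at the start). CArG boxes are in EGR1 (2) and the third EGR2 window (1); both NR4A1 windows are empty.

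AU-rich elements in the 3′ untranslated region (UTR), which recruit decay factors such as ZFP36, were unevenly spread over the members. In GENCODE 29 transcripts ATTTA occurred 10 times in the 3′ UTR of NR4A3, 4 times in NR4A2, 3 times each in NR4A1 and EGR3, 2 times in EGR2, once in EGR1 and not in EGR4. Per kilobase this was 5.39 in NR4A1, 3.31 in NR4A3, 3.05 in NR4A2, 1.65 in EGR2, 1.07 in EGR3 and 0.810 in EGR1. Over 12043 kept protein-coding genes the median was 1.58 per kilobase, and 66.7% held at least 1. The longer core TATTTAT, which contains ATTTA, occurred once in NR4A2 and 2 times in NR4A3, in no other member and in 30.9% of those genes. The sites are shown with TATTTAT in capitals (GRCh38, GENCODE 29).
NR4A2 (chr2:156325131-156325153, minus strand): tttgtgccTATTTATgaataaat
NR4A3, first site (chr9:99865192-99865214, plus strand): tttgcctgTATTTATtgcaagac
NR4A3, second site (chr9:99865333-99865355, plus strand): catatataTATTTATaatgtgtc

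Other transcript features come from the authors' deposited table. A half-life, which the authors took from another study, was given for NR4A1 (2.99 h) and NR4A3 (2.63 h), where kept protein-coding genes with a value had a median of 4.0 h and a lower quartile of 2.94 h (9527 genes). The other 5 members had none, EGR1 among them. GC content ran from 42.6% in EGR2 to 65.1% in EGR4, both sides of the median of 44.5%. The 3′ UTR was 527 bases in EGR4 and 3023 bases in NR4A3, against a median of 1384 bases. The length listed for NR4A1, 4837 bases, is that of a transcript that GENCODE 29 annotates as keeping an intron, so how its FPKM was scaled to length is uncertain.

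Lists of factors that work with or upstream of the members held no call, which with 0.512% of kept rows rising in RLKO and 4.48% in WT is near the background for lists of this size. Of 6 listed EGR partners, among them the corepressors NAB1 and NAB2, none rose or fell, with a median log2 change of -0.01 in RLKO and -0.14 in WT. The most abundant were the acetyltransferases EP300, with 31.4 FPKM in treated and 26.8 FPKM in untreated RLKO cells and 54.0 FPKM in treated and 24.3 FPKM in untreated WT cells, and CREBBP, with 34.7 and 43.2 FPKM in treated and untreated RLKO cells and 37.4 and 22.5 FPKM in treated and untreated WT cells. Of the 3 RXR genes only RXRA was kept, at 8.40 and 10.3 FPKM in treated and untreated RLKO cells and 6.42 and 9.83 FPKM in treated and untreated WT cells. None of 23 kept upstream regulators, such as serum response factor, its partners, CREB factors and MAP kinases, rose or fell, with medians of -0.10 in RLKO and -0.62 in WT. CREB1 had 78.9 FPKM in treated RLKO and 56.9 FPKM in treated WT cells, and the ERK kinase MAP2K2 48.5 FPKM in treated RLKO and 35.8 FPKM in treated WT cells.

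Of 35 other immediate early genes kept, 9 rose in RLKO and 24 in WT and none fell, with medians of 0.60 in RLKO and 1.44 in WT, and 29 of 35 were more than 2-fold lower in treated RLKO than in treated WT cells (median ratio 0.338). By size of change in WT the first 4 were NFKBIZ, a nuclear IkB protein, with a log2 change of 2.52 in RLKO and 5.53 in WT, the stress factor ATF3 at 4.15 in RLKO and 5.31 in WT, PPP1R15A, a phosphatase regulator of the stress response, at 4.02 in RLKO and 4.95 in WT, and FOS, an AP-1 subunit, at 1.92 in RLKO and 4.59 in WT. All 4 passed in both lines. In RLKO the changes of KLF4 (2.24) and JUN (2.14), named after their values were seen, were larger than that of FOS. This list was drawn up with earlier results of these data known, as were the members, so its direction is not independent of them.

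The structural relatives of both families were described the same way. Of 31 kept nuclear receptors outside NR4A, 1 rose in RLKO and 3 in WT and none fell. Among all kept rows 0.512% rose in RLKO and 4.48% in WT. The receptors had median log2 changes of -0.23 in RLKO and -0.27 in WT and a median treated ratio of 0.955. NR2F1, an orphan receptor also called COUP-TFI, rose in both, with 6.49 FPKM in treated and 0.760 FPKM in untreated RLKO cells and 22.6 FPKM in treated and 1.71 FPKM in untreated WT cells. The estrogen receptor gene ESR1 (log2 change 0.05 in RLKO, 1.55 in WT) and the orphan receptor gene NR5A2 (-0.02 in RLKO, 0.80 in WT) rose in WT. None of 13 zinc-finger factors of GC-rich sites, such as SP3 and MAZ, rose or fell, with medians of -0.28 in RLKO and -0.19 in WT. None of these differences between lists was tested.

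Genes reported elsewhere as EGR1 targets, of which 19 were kept, had median log2 changes of 0.11 in RLKO and 0.21 in WT. Among all kept rows 0.512% rose in RLKO and 4.48% in WT. Of the 19, none rose in RLKO, 3 rose in WT and none fell. The 3 were the adhesion molecule ICAM1 (log2 change 2.25 in RLKO, 3.06 in WT), the growth arrest gene GADD45A (1.06 in RLKO, 2.16 in WT) and SPRY2, an inhibitor of receptor signalling (0.95 in RLKO, 1.87 in WT). ICAM1 had 5.25 FPKM in treated and 0.207 FPKM in untreated RLKO cells, against 15.1 FPKM in treated and 0.486 FPKM in untreated WT cells. In RLKO the authors' deposited table gave q = 0.131 for ICAM1, 0.262 for GADD45A and 0.145 for SPRY2. ICAM1 is also a known target of NF-kB. EGR protein was not measured.

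**Figure D5:**
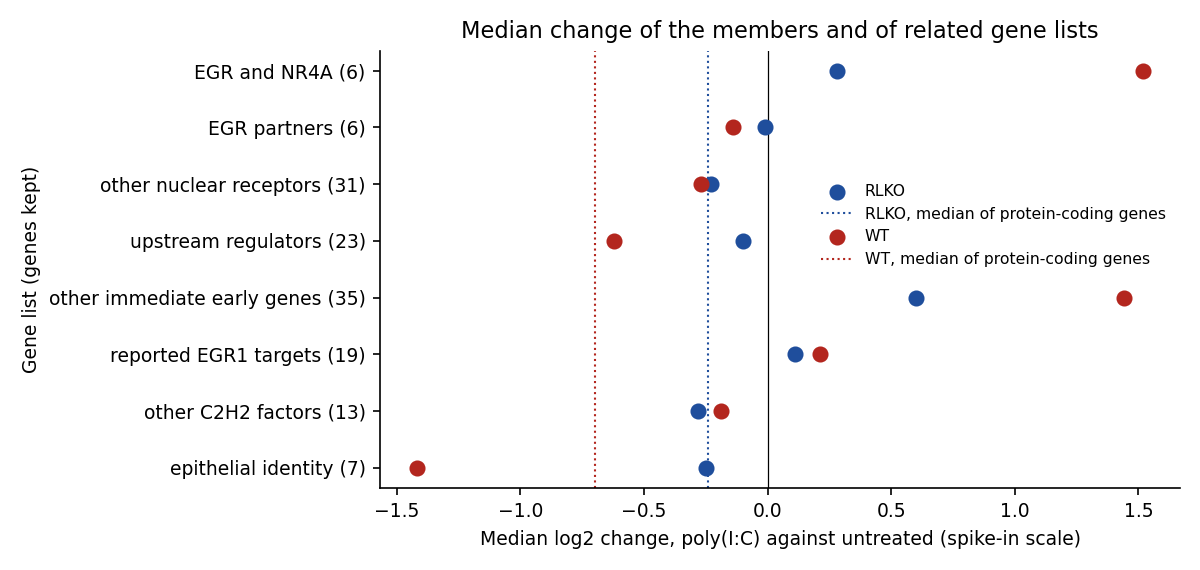
Median log2 change after poly(I:C) against untreated cells (horizontal axis, spike-in scale, pseudocount 1) of the 6 kept members and of the lists with at least 6 kept genes, in RLKO (blue) and WT (red), with the number of genes in parentheses; dotted lines are the medians of all kept protein-coding genes. The EGR and NR4A median of 1.52 in WT and that of other immediate early genes, 1.44, lie to the right of every other list. EGR2, EGR3 and NR4A3 passed the filter only through treated WT cells, which by itself favours a higher WT median. Members and lists were chosen with earlier results of these data known.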

How the data were processed

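Total RNA of 12 samples was sequenced after rRNA depletion, with ERCC spike-in RNA added first, per the labels. Per the submitters' processing notes, Cuffdiff 2.2.1, TopHat2 2.0.6, Bowtie2 2.0.2, Trimmomatic 0.32 and FastQC were used with the build GRCh38.p12; their settings are not given in the sources used here. Per the file headers, the deposited table gives 1 FPKM value per group for 58671 gene rows and 92 ERCC rows, with a p-value and a q-value from the authors for poly(I:C) within each genotype. It also gives transcript lengths in bases, GC content in percent and half-lives, per the file headers. The 3 samples of a group are called independent in the design text; a test over samples was not possible here.

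Rows marked HIDATA (86) and the 90 rows that share an identifier were left out. Each group was divided by its median ratio, over the 49 ERCC rows averaging 1 FPKM or more and above 0 in every group, to the geometric mean of the groups; this factor was 1.13 times higher in treated than untreated RLKO cells and 1.53 times in WT. The tests are the authors', made on values without this scaling. Members and gene lists were chosen with earlier results of these data known. Named list genes are the up to 4 with the largest change among those called in WT. Where fewer than 2 were called, the 2 most abundant are named. Identity markers, KLF4, JUN, AC025259.3 and RPL7 were named beside them. Motifs were sought in RefSeq and GENCODE 29 sequences, for UTRs in the basic transcript with the longest coding part. Scripts (Python 3.11) were tested on simulated data. The level of the targeted gene is not reported here.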

Additional observations from a re-analysis of the deposited data

How the results depend on the processing

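No paired analysis was possible because the table gives 1 value per group, so neither a replicate block nor leaving out a replicate could be run. At a q threshold of 0.01 the count of members that rose in RLKO was 0 instead of 1, since no q in RLKO is below 0.0107; the Cuffdiff test gave EGR1 and NR4A3 an unadjusted p under 0.05 there. With a filter at 5 FPKM, which EGR1 and NR4A1 alone pass, 2 members rose in WT instead of 4, and without a filter 5. Adjusting the authors' p-values over the kept rows, or a threshold of 0.10, left 1 in RLKO and 4 in WT. The medians of the members moved with the pseudocount and the filter. With a pseudocount of 0.1 they were 1.08 for the RLKO change, 3.15 for the WT change, -2.34 for treated RLKO against treated WT and -2.13 for the difference of the changes, and with the 5 FPKM filter 2.13, 4.32, -2.38 and -2.19 in the same order, over fewer genes. Under 3 other scalings and the other pseudocount the WT change of all 7 members stayed above 0 (28 values, 0.72 to 8.76). The difference of the changes stayed below 0 (28 values, -3.07 to -0.59). The sign of the WT change was bound to hold. EGR3 and EGR4 are listed at 0 in untreated WT cells. The smallest WT ratio of FPKM among the others, 5.79 for NR4A1, far exceeds the scale factor ratio of 1.53. Of 140 member values under these settings 21 moved by more than 0.58, all with the pseudocount of 0.1. Depth is unknown, and values under 1 FPKM have no error of their own.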

Other observations

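Of the nearest annotated genes on either side of the members, those that passed the filter had no call in either line. With 0.512% of kept rows rising in RLKO and 4.48% in WT, this is near the background for so few genes. Those that did not pass, STX17-AS1 among them, could not be called. The pseudogene RPL7P19, which starts 4429 bases past the end of EGR1 on the same strand, had 0.0607 FPKM in treated and 0.211 FPKM in untreated RLKO cells, against 25.1 FPKM in treated and 0.265 FPKM in untreated WT cells (q = 0.0651 in WT in the authors' deposited table). Reads of RPL7P19 may be shared with RPL7 and its other copies, which was not tested. The log2 change of RPL7 itself was -1.38 in RLKO and -3.61 in WT, and its bearing on RPL7P19 was not tested. AC113403.1, on the other side of EGR1, is listed at 0 in 3 groups and had 1.64 FPKM in treated WT cells. ADO, next to EGR2, had 6.62 and 5.77 FPKM in treated and untreated RLKO cells and 7.75 and 5.86 FPKM in treated and untreated WT cells. ATG101, an autophagy gene that starts 9739 bases past NR4A1, had 31.1 and 32.5 FPKM in treated and untreated RLKO cells, and 21.7 and 38.1 FPKM in treated and untreated WT cells. STX17-AS1, past NR4A3 on the opposite strand, had 0.106 and 0.0779 FPKM in treated and untreated RLKO cells, and 0.630 and 0.0428 FPKM in treated and untreated WT cells.

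Within the list of other immediate early genes the gap between the lines varied. CSRNP1 (log2 change 1.63 in RLKO, 1.89 in WT) and NFIL3 (1.12 in RLKO, 1.44 in WT) rose in both lines. ARC (0.00 in RLKO, 2.16 in WT), TRIB1 (-0.39 in RLKO, 1.73 in WT) and BTG2 (0.34 in RLKO, 2.29 in WT) rose in WT with q of 1.00 in RLKO in the authors' deposited table, as NR4A1 did. These 5 genes were picked after their values were seen, and no difference between the lines was tested.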
